A study of Homo sapiens with 6 samples.

Results

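The genes described here are 46 components of DNA replication and of the G1/S switch, chosen by name from a table of 17860 genes measured in HCC1806/HM3 cells. They were grouped by role into 10 sub-complexes: origin licensing, the MCM2-7 helicase, helicase activation, polymerase alpha-primase, polymerases delta and epsilon, the sliding clamp and its loader, Okazaki fragment maturation, nucleotide supply, chromatin assembly with histone mRNA and S-phase control, and E2F with cyclin E. HCC1806 is a human triple-negative breast cancer line, given in the labels as breast squamous cell carcinoma cells, and HM3 is its third-passage derivative selected in mice for growth in the liver. All 6 samples were cultured HM3 cells carrying a lentiviral shRNA selected with G418, 3 with a control sequence (shNC) and 3 with an shRNA against MSLN (shMSLN). The labels do not say whether the 3 samples of a group came from separate cultures, so the p-values measure the spread between these samples, which may be technical. Which MSLN shRNA sequence the sequenced cells carried is not given in the sources used here.

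Before S phase, the origin recognition complex with CDC6 and CDT1 loads the MCM2-7 ring onto DNA in an inactive form, a step called licensing. The ring becomes an active helicase when CDC45 and the GINS complex join it, after which polymerase alpha-primase lays down primers and polymerases epsilon and delta extend them with the help of the PCNA clamp. Most of these genes are transcribed as cells pass from G1 into S phase, when E2F factors are released from the retinoblastoma protein by cyclin-dependent kinases, including CDK2 with cyclin E. The comparison of shMSLN with shNC cells was made in the study to find pathways through which mesothelin, a cell surface protein, acts on the cells. Here it asks whether the transcripts of the replication machinery differed between them.

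The E2F recognition sequence is shown first because E2F factors drive many of these genes. The choice of genes by name did not use the sequence, but it favoured genes of this kind. A high share among them is therefore no independent finding. RefSeq promoter sequences of GRCh38.p14, from 250 bases before to 50 bases after the start site, matched 41 of the 46 genes. MCM4, MCM5, GINS4, POLD3 and CCNE2 had no match. The letters TTCCCGC, on either strand, were in 43.9% of the 41 promoters and in 9.77% of the promoters of 11786 tested genes. TTGGCGC, on either strand, was in 31.7% against 4.84%, and at least one of both E2F sequences was in 27 of 41, or 65.9%, against 14.0%. The letters CCAAT, a box bound by NF-Y, were on either strand in 56.1% of the 41 promoters and in 36.6% of those of the tested genes. The last sequence searched, TTTGAA on either strand, was in 2.44% against 10.1%. The windows below hold matches in helicase, primase, polymerase, clamp loader, ligase and E2F genes whose levels are described below. Capitals mark the match, read on the strand of the gene, where GCGGGAA and GCGCCAA are the same sequences in the opposite orientation.
MCM6 distal match, chr2:135876577-135876605, minus strand: gggctttgcatTTGGCGCgaaatcccttt
MCM6 proximal match, chr2:135876515-135876543, minus strand: attggtcaggtTTGGCGCgaaatctccag
MCM3 distal match, chr6:52284898-52284926, minus strand: ggatggtacgtTTCCCGCcaccgcggggc
MCM3 proximal match, chr6:52284748-52284776, minus strand: aacctttggtgGCGGGAAgagttcggaag
MCM7 distal match, chr7:100101567-100101595, minus strand: cagctcggaccGCGGGAAacccggcgcct
PRIM1 match, chr12:56752330-56752358, minus strand: cggccgtgctgTTCCCGCcaattcctgtg
POLE distal match, chr12:132687438-132687466, minus strand: gccgggcgccgGCGCCAAttggagcgcct
RFC3 match, chr13:33818083-33818111, plus strand: atttggagctcGCGGGAAaacttgtctct
PCNA match, chr20:5126664-5126692, minus strand: cagcgtcagggGCGGGAAaaggcgtgcgt
LIG1 match, chr19:48170440-48170468, minus strand: cttcaccccttTTCCCGCcctcctcccat
E2F1 match, chr20:33686387-33686415, minus strand: gcaaaaaggatTTGGCGCgtaaaagtggc
E2F2 match, chr1:23531257-23531285, minus strand: cggcacgacgtTTGGCGCtaaaaaaaaaa
Both MCM6 matches are the TTGGCGC form followed by gaaat, 151 and 89 bases before the start site.

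The deposited estimated counts summed to between 17507837 and 18512135 per sample. MSLN, the target of the shRNA, was at 231, 226 and 227 CPM (read counts scaled to TMM library size) in the shNC samples and at 37.1, 36.2 and 35.4 CPM in the shMSLN samples. Its log2 fold change was -2.65 (SE, the standard error, 0.042, edgeR quasi-likelihood adjusted p = 3.97e-15). Epithelial and squamous markers were abundant in shNC cells, with KRT5 at 2228 TPM (the authors' unit, scaled for gene length and depth), EPCAM at 354 TPM and TP63 at 186 TPM on average. KRT14 was low, at 4.78 TPM. Of the receptor genes, PGR was at no more than 0.01 TPM, while ESR1 was at 6.56 TPM and ERBB2 at 74.7 TPM. Among markers of other cell types, the hepatocyte genes ALB and APOA1 were at 0.033 and 0.047 TPM. The leukocyte gene PTPRC was at 3.03 TPM and the endothelial gene PECAM1 at 0.73 TPM. The fibroblast genes COL1A1 and COL1A2 were at 11.45 and 0.017 TPM, all in shNC cells. In shNC replicate 1, 39 of the 46 replication genes were at their highest among the 3 shNC samples, and in shNC replicate 2 a total of 34 were at their lowest. The median of the 46 genes, as log2 CPM relative to the shNC mean, was 0.11, -0.082 and -0.033 in shNC replicates 1, 2 and 3. It was 0.046, 0.044 and 0.072 in shMSLN replicates 1, 2 and 3, within the range of the shNC samples. In shMSLN replicates 2 and 3, 47.7% of the counts above 100 reads were whole numbers, against 4.67% in shMSLN replicate 1. A fit with shMSLN replicate 1 as the only shMSLN sample is described at the end, beside its counts over all genes. Where leaving out shNC replicate 1 adds a call among the 46 genes, the value without it is given beside the gene. That sample stood out because these same genes were high in it. Leaving it out lowers their shNC mean, so the added calls show dependence on 1 sample and are not further support. The same holds for shNC replicate 2, where 34 of these genes were lowest among the shNC samples. Leaving that sample out raises their shNC mean, so the lower calls this adds are not further support.

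**Figure D1:**
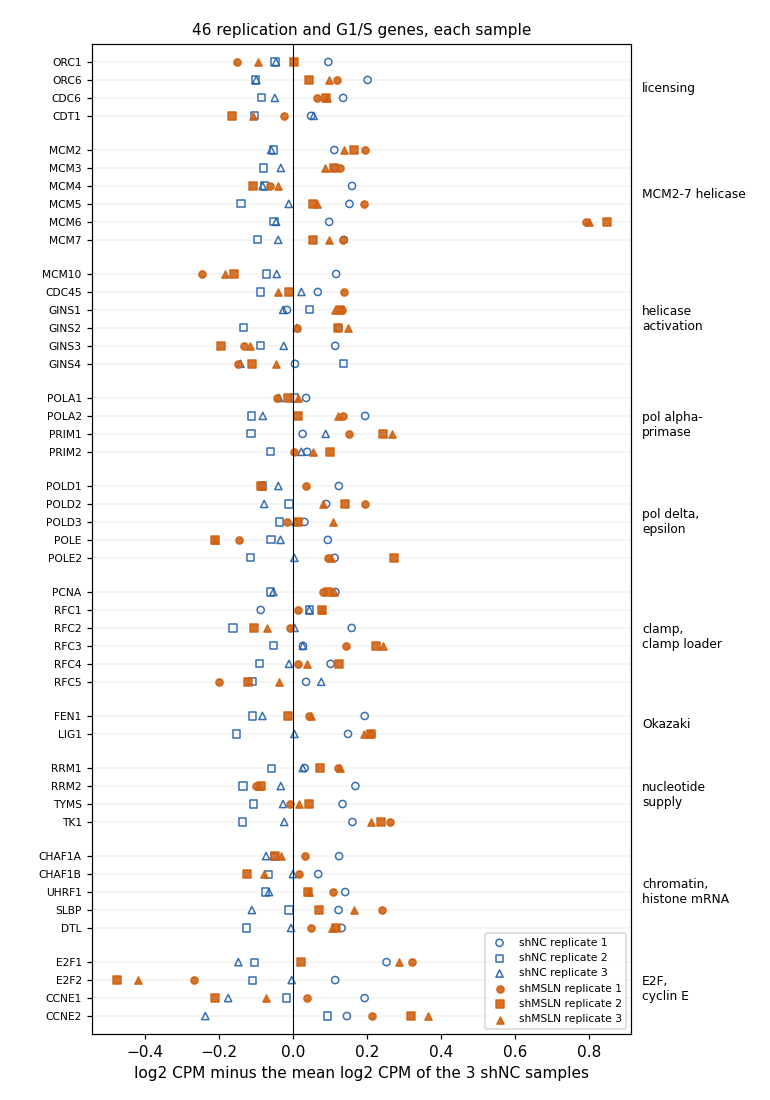
Each row is 1 of the 46 genes and each point 1 sample, as log2 CPM minus the mean of the 3 shNC samples (open blue, shNC; filled orange, shMSLN; marker shape, replicate number). MCM6 is the only row in which the shMSLN points stand beyond 0.5, and shNC replicate 1 (open circles) lies at the right of the shNC points in 39 rows.

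In shMSLN cells, 8 of the 46 genes were higher and 3 were lower than in shNC cells, and 35 did not pass the threshold of an adjusted p of 0.05 (edgeR's quasi-likelihood test, Benjamini-Hochberg adjustment over 14552 genes). MCM6, CCNE2, TK1, PRIM1, RFC3, LIG1, MCM2 and GINS1 rose, and E2F2, MCM10 and POLE fell. In bulk RNA, a change in the share of cells that express a gene and a change in RNA per cell cannot be told apart. All 46 genes passed the filter on low counts, and the lowest of them averaged 199 reads per sample. Over all genes tested, 34.6% passed the threshold, with 16.6% higher and 18.0% lower in shMSLN cells, and among the 10274 genes at least as abundant as the lowest of the 46 the share was 39.4%. The share of the 46 genes that passed was 23.9%, with 17.4% higher and 6.52% lower. The median log2 fold change was 0.059 over the 46 genes and 0.0019 over all genes tested. The changes were small for nearly every gene, and for 43 of the 46 the 95% interval of the log2 fold change lay within 0.5 of 0. The exceptions were MCM6, E2F2 and CCNE2. The 35 genes that did not pass had log2 fold changes between -0.15 and 0.21, 22 of them above 0. The groups of 3 samples did not overlap for 13 of the 46 genes, 9 with shMSLN above and 4 below. Over all genes tested the groups did not overlap for 46.2%, with shMSLN above for 22.7% and below for 23.5%.

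The number of genes that passed depended on shNC replicate 1. Without it, 22 of the 46 were higher and 3 lower, and the median log2 fold change was 0.12, while over all genes 2570 were higher and 2829 lower. The 14 added genes were MCM3, MCM5, MCM7, CDC6, ORC6, POLA2, POLD2, PCNA, FEN1, RRM1, UHRF1, SLBP, DTL and E2F1. Without shNC replicate 2, 6 were higher and 6 lower, against 2343 and 2566 over all genes. The added genes were GINS3, RFC5 and RRM2, all lower. In shNC replicate 2 each of them was at its lowest among the shNC samples. With the replicate number as a block, 13 were higher and 4 lower, against 2785 and 3004 over all genes. The block brought in E2F1, MCM3, POLD2, RRM1 and SLBP as higher and RFC5 as lower. In the blocked fit and in that without shNC replicate 1, the 11 genes named above were called as well. Upper-quartile scaling, which moved the median of all genes tested up to 0.031, gave 12 of the 46 higher and 3 lower. Over all genes it turned 2411 higher and 2621 lower into 2911 higher and 2149 lower.

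**Figure D2:**
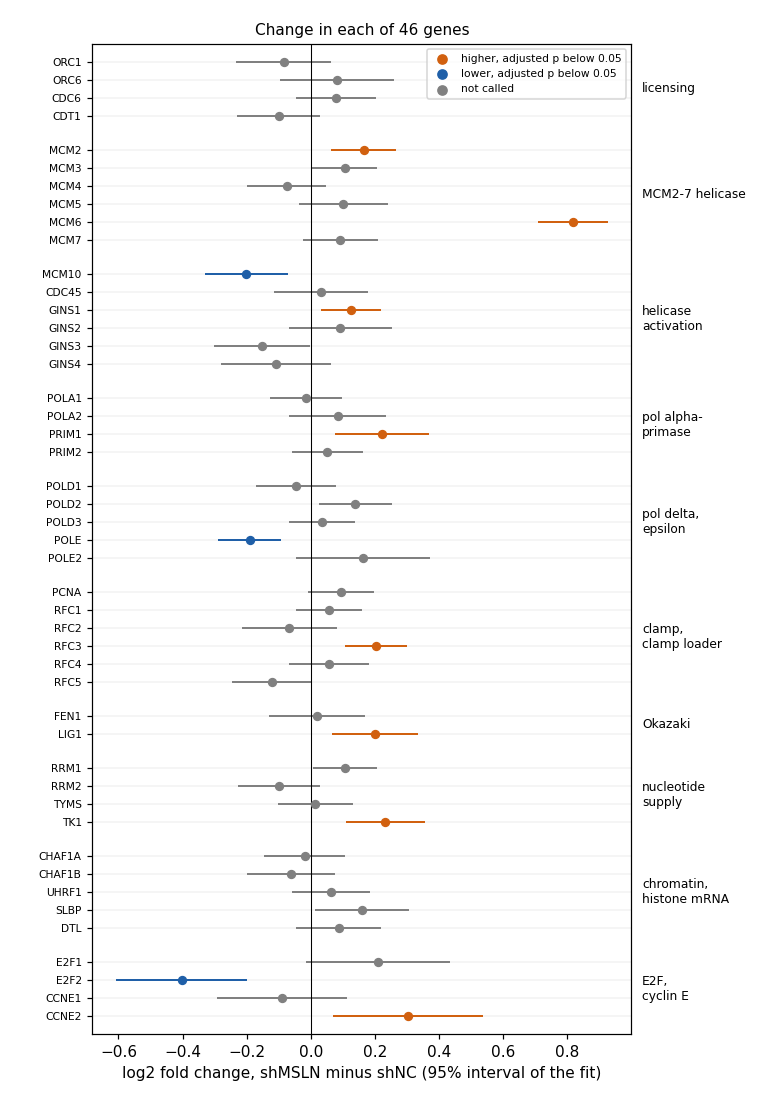
Log2 fold change of shMSLN minus shNC for each of the 46 genes, with the 95% interval of edgeR's fit, ordered by sub-complex (orange, higher; blue, lower; grey, adjusted p not below 0.05). Most intervals lie close to 0, while MCM6 is centred at 0.82 and E2F2 at -0.40.

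The MCM2-7 helicase held the largest change of the 46 genes. MCM6, NCBI Gene 4175, a subunit of the ring, was at 58.4, 52.7 and 52.9 CPM in the shNC samples and at 94.8, 98.7 and 95.5 CPM in the shMSLN samples. The lowest shMSLN sample was well above the highest shNC sample. The mean rose from 54.7 ± 3.28 to 96.3 ± 2.08 CPM (SD, n = 3 each), a 1.76-fold change, with a log2 fold change of 0.82 (SE 0.050, edgeR quasi-likelihood adjusted p = 1.87e-08). Over all 17 alternative fits, including those that each left out a sample, the log2 fold change of MCM6 was between 0.79 and 0.87 and the gene passed the threshold each time.

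The other subunits of the ring changed little. MCM2 was at 179.6, 160.2 and 159 CPM in shNC cells and at 190.1, 186 and 183 CPM in shMSLN cells, a rise of 12.1% with no overlap between groups (log2 fold change 0.16, edgeR adjusted p = 0.0132). MCM3 was at 238, 208 and 215 CPM and at 240.5, 237 and 234 CPM, so that shNC replicate 1 lay within the shMSLN samples. Its log2 fold change of 0.11 did not pass (adjusted p = 0.0904, and 0.0279 with the replicate block, edgeR). MCM4 was at 181, 153 and 153 CPM in shNC cells and at 155, 150.1 and 157 CPM in shMSLN cells. MCM5 was at 105, 85.3 and 93.3 CPM in shNC cells and at 108, 97.6 and 98.5 CPM in shMSLN cells. MCM7 was at 165, 140.3 and 146 CPM in shNC cells and at 165, 156 and 161 CPM in shMSLN cells. The groups overlapped for these 3 subunits, with log2 fold changes of -0.075, 0.10 and 0.092 (adjusted p = 0.328, 0.240 and 0.195 from edgeR). Without shNC replicate 1 the value of MCM4 was 0.0088, while MCM3, MCM5 and MCM7 were at 0.16, 0.18 and 0.16 (adjusted p = 0.000923, 0.00672 and 0.00198). MCM2 lost its call in 3 of the 17 alternative fits.

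**Figure D3:**
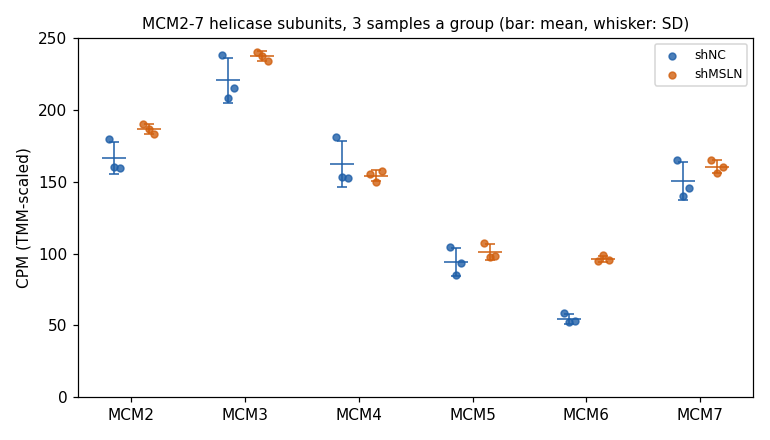
TMM-scaled CPM of the 6 subunits of the MCM2-7 ring in the 3 shNC (blue) and 3 shMSLN (orange) samples, with the mean and SD. The MCM6 groups lie apart, at 54.7 and 96.3 CPM on average, whereas the groups of the other subunits lie close together.

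The ratio of MCM6 to its partners in each sample is given as a description, with no test, since MCM6 was singled out for its change. The log2 level of MCM6 relative to the mean of the other 5 subunits was -1.52, -1.45 and -1.49 in shNC replicates 1, 2 and 3. It was -0.81, -0.69 and -0.75 in shMSLN replicates 1, 2 and 3, a difference of 0.74. Against the mean of the other subunits without MCM6, MCM2 differed by 0.11 and MCM4 by -0.19 between groups, and MCM3, MCM5 and MCM7 by 0.034, 0.029 and 0.019. Scaled for gene length, MCM6 was the least abundant subunit in both groups. In shNC cells it was at 31.7 ± 1.51 TPM, against 158 ± 7.28 TPM for MCM3, 133 ± 9.33 TPM for MCM7, 106 ± 6.01 TPM for MCM2, 86.9 ± 7.45 TPM for MCM4 and 65.8 ± 5.71 TPM for MCM5 (SD, n = 3). In shMSLN cells MCM6 was at 57.3 ± 1.52 TPM and the next lowest, MCM5, at 72.7 ± 3.37 TPM. The share of MCM6 in the summed TPM of the 6 subunits was 5.36%, 5.59% and 5.44% in the shNC samples and 8.42%, 8.98% and 8.71% in the shMSLN samples.

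Among the licensing genes, 0 of 4 passed with edgeR, DESeq2 or limma-voom, and 0 had an unadjusted p below 0.05 in edgeR. Over all genes tested 34.6% passed in edgeR, and 6434 of 14552 had an unadjusted p below 0.05. With only 4 genes, the absence of calls is not read as a result about licensing. ORC1 and ORC6 are subunits of the origin recognition complex, and CDC6 and CDT1 are the factors that load the helicase. CDT1, which had the largest difference of the 4, was at 46.0, 41.3 and 46.2 CPM in shNC cells and at 43.7, 39.6 and 41.2 CPM in shMSLN cells. The groups overlapped, with a log2 fold change of -0.10 and a 95% interval from -0.23 to 0.03. The other 3 had values between -0.085 and 0.081. In the fit without shNC replicate 1, CDC6 was at 0.15 (adjusted p = 0.0155) and ORC6 at 0.19 (adjusted p = 0.0378).

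Helicase activation was split. MCM10, which helps the loaded helicase to open origins, was at 48.7, 42.7 and 43.5 CPM in shNC cells and at 37.8, 40.1 and 39.5 CPM in shMSLN cells, with no overlap. It fell by 0.20 on the log2 scale (SE 0.059, edgeR adjusted p = 0.0161). The call was lost in the 2 fits that lacked shMSLN replicate 1 or used it as the only shMSLN sample. GINS1 rose from 77.2 ± 2.05 to 84.1 ± 0.496 CPM (SD, n = 3 each; log2 fold change 0.12, adjusted p = 0.0342) and lost its call in 6 of the 17 alternative fits. GINS1 to GINS4 form a single complex, and the other 3 genes had log2 fold changes of 0.092 for GINS2, -0.15 for GINS3 and -0.11 for GINS4, none of which passed. For GINS3 the shMSLN samples lay below the shNC samples without overlap. Without shNC replicate 2, GINS3 was at -0.20 (edgeR adjusted p = 0.0442). CDC45, which joins GINS on the helicase, differed by 0.031 on the log2 scale (adjusted p = 0.754).

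Of the 9 polymerase genes, PRIM1 rose and POLE fell. PRIM1, the catalytic subunit of primase, was at 25.9, 23.4 and 27.0 CPM in shNC cells and at 28.3, 30.2 and 30.7 CPM in shMSLN cells, without overlap (log2 fold change 0.22, SE 0.067, edgeR adjusted p = 0.0181). POLE, the catalytic subunit of the leading strand polymerase epsilon, was at 179.5, 161 and 164 CPM in shNC cells and at 152, 145 and 145 CPM in shMSLN cells. All 3 shMSLN samples were below all shNC samples, and POLE fell by 0.19 on the log2 scale (SE 0.045, adjusted p = 0.00437). POLE2, the second subunit of the same polymerase, had a log2 fold change of 0.16 with overlapping groups (adjusted p = 0.213). In the same direction as POLE2, POLD2 was at 0.14 (adjusted p = 0.0503, and 0.0132 with the replicate block). POLD1, POLD3, POLA1, POLA2 and PRIM2 were between -0.047 and 0.084. Without shNC replicate 1, POLA2 was at 0.19 (adjusted p = 0.00407) and POLD2 at 0.18 (adjusted p = 0.00466). PRIM1 lost its call in 5 of the 17 alternative fits and POLE in 1, the fit of shMSLN replicate 1 alone.

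RFC3 was the 1 gene of the clamp and clamp loader that rose. RFC3 is a small subunit of replication factor C, the ATPase that opens PCNA and sets it on primed DNA. It was at 95.4, 90.3 and 95.4 CPM in shNC cells and at 103, 109.5 and 111 CPM in shMSLN cells (log2 fold change 0.20, SE 0.044, edgeR adjusted p = 0.00244). The other loader subunits, RFC1, RFC2, RFC4 and RFC5, had log2 fold changes from -0.12 to 0.057. RFC5, the lowest, had an adjusted p of 0.107 that became 0.0437 with the replicate block. Without shNC replicate 2, RFC5 was at -0.18 (edgeR adjusted p = 0.0165). PCNA, the clamp itself and a widely used marker of proliferating cells, was at 147, 130.3 and 131 CPM in shNC cells and at 144, 145 and 147 CPM in shMSLN cells. The highest of the 6 PCNA values was in shNC replicate 1, and its log2 fold change of 0.094 did not pass (adjusted p = 0.141). Leaving that sample out gave 0.15 (adjusted p = 0.00220, with 0.00220 to 0.412 across all fits lacking 1 sample).

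LIG1, the ligase that seals Okazaki fragments, was at 83.1, 67.4 and 75.1 CPM in shNC cells and at 86.8, 86.9 and 85.6 CPM in shMSLN cells. The groups did not overlap, and the log2 fold change was 0.20 (SE 0.061, edgeR adjusted p = 0.0192). FEN1, the flap nuclease that acts before the ligase, was at 0.019 (adjusted p = 0.855), and at 0.12 without shNC replicate 1 (adjusted p = 0.0451). LIG1 lost its call in 5 of the 17 alternative fits.

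In nucleotide supply, TK1 rose and the other genes did not pass. TK1, the cytosolic thymidine kinase of the salvage pathway, was the most abundant of the 46 genes per length, at 422 ± 36.6 TPM in shNC cells and 508 ± 5.75 TPM in shMSLN cells (SD, n = 3 each). Its levels were 303, 246 and 266 CPM in shNC cells and 325, 319.6 and 314 CPM in shMSLN cells. Each shMSLN sample was above each shNC sample (log2 fold change 0.23, SE 0.057, edgeR adjusted p = 0.00536). TYMS, which makes thymidylate in the other route, was at 0.014 on the log2 scale (adjusted p = 0.867), with 39.1% of its exon bases shared with ENOSF1 on the opposite strand. Neither subunit of ribonucleotide reductase passed in the main fit. RRM1 was at 0.11 (edgeR adjusted p = 0.0783, and 0.0455 with the replicate block) and RRM2 at -0.099 (edgeR adjusted p = 0.207). These subunits were not compared with each other. Without shNC replicate 1 RRM1 was at 0.12 (adjusted p = 0.0400), and without shNC replicate 2 RRM2 was at -0.16 (adjusted p = 0.0151).

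The 5 genes of chromatin assembly, histone mRNA and S-phase control gave 0 calls with edgeR, DESeq2 or limma-voom. Of these genes, SLBP alone had an unadjusted p below 0.05 in edgeR. In edgeR 34.6% of all genes tested passed, and with only 5 genes the absence of calls is likewise not read as a result. SLBP, which binds the stem-loop of histone mRNA, was at 37.2, 33.9 and 31.6 CPM in shNC cells and at 40.4, 35.8 and 38.3 CPM in shMSLN cells. The groups overlapped and the log2 fold change was 0.16 (adjusted p = 0.0806, and 0.0296 with the replicate block, edgeR). CHAF1A and CHAF1B, subunits of the chromatin assembly factor, were at -0.019 and -0.062. UHRF1, which brings the maintenance methyltransferase to new DNA, was at 0.062, and DTL, a substrate receptor for the degradation of CDT1, was at 0.087. Without shNC replicate 1 these 2 and SLBP passed, with UHRF1 at 0.14, DTL at 0.16 and SLBP at 0.22 (adjusted p = 0.0154, 0.0249 and 0.00827).

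E2F2 and CCNE2 were the least abundant of the 46 genes per length, at 6.90 and 8.06 TPM in shNC cells, and E2F2 fell while CCNE2 rose. E2F2 is an activator of S-phase transcription. E2F2 was at 14.8, 12.6 and 13.6 CPM in shNC cells and at 11.2, 9.65 and 10.1 CPM in shMSLN cells, all shMSLN samples being lower. E2F2 fell by 0.40 on the log2 scale (SE 0.094, edgeR adjusted p = 0.00421). E2F1, a close relative and likewise an activator of transcription, was at 24.8, 19.3 and 18.7 CPM in shNC cells and at 26.1, 21.1 and 25.5 CPM in shMSLN cells. The groups overlapped, and its log2 fold change of 0.21 had a 95% interval from -0.01 to 0.43 (adjusted p = 0.136, and 0.0339 with the replicate block). Without shNC replicate 1 it was at 0.35 (adjusted p = 0.00296). Within samples the log2 ratio of E2F1 to E2F2 was 0.75, 0.62 and 0.46 in shNC cells and 1.21, 1.13 and 1.34 in shMSLN cells, given as a description.

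CCNE2, 1 of 2 genes for cyclin E, was at 10.9, 10.5 and 8.24 CPM in shNC cells and at 11.5, 12.3 and 12.8 CPM in shMSLN cells. The groups lay close to each other but did not overlap (log2 fold change 0.30, SE 0.11, edgeR adjusted p = 0.0412). This call was lost in 6 of the 17 alternative fits, and 37.0% of the CCNE2 exon bases overlap INTS8 on the opposite strand, whose own log2 fold change was -0.11 (adjusted p = 0.0945). CCNE1 was at 24.1, 20.7 and 18.5 CPM in shNC cells and at 21.6, 18.1 and 19.9 CPM in shMSLN cells. It did not differ beyond the spread, with a log2 fold change of -0.089 and a 95% interval from -0.29 to 0.11. Since the strand setting of the counts is not given in the sources used here, reads of overlapping genes on opposite strands cannot be told apart. In the reference annotation (GENCODE release 29), 19 of the 46 genes share exon bases with another gene, and 8 share more than 10% of them, among them MCM2 and PRIM1. MCM6 shares none.

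**Figure D4:**
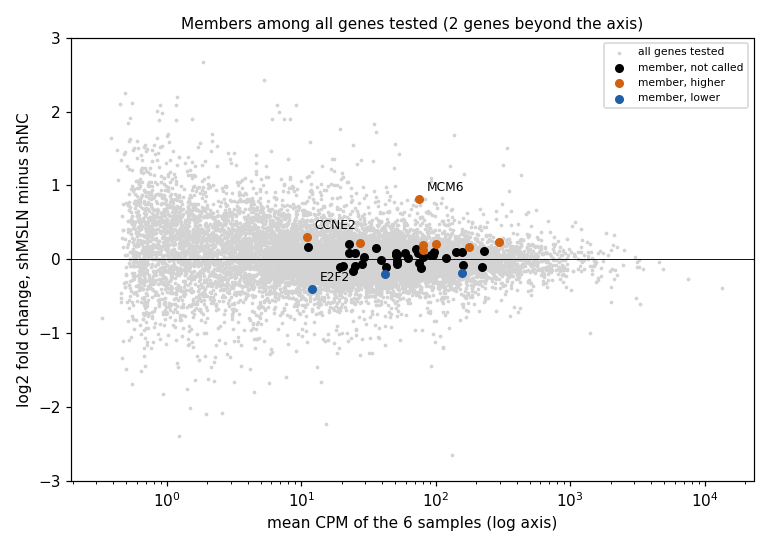
Log2 fold change against mean CPM (log axis) for all 14552 genes tested (grey), with the 46 genes in black, orange or blue by call. The 46 genes lie near the centre of the cloud except for MCM6, and 2 genes fall beyond the vertical axis.

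The genes with and without an E2F sequence were set side by side, with no test. Of the 27 genes with a match, 5 were higher and 2 lower, with a median log2 fold change of 0.079. Of the 14 without a match, 2 were higher and 1 lower, with a median of 0.041. For comparison, 34.6% of all genes tested passed, with 16.6% higher and 18.0% lower, and their median was 0.0019. The changes of genes outside this list were not split by E2F sequence. The counts are therefore not read as a result about genes with that sequence. MCM6 and E2F2 both carry the TTGGCGC form shown above and had opposite changes, while TK1, MCM2 and MCM10 had no match to either sequence in the window.

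A list of 65 other replication and G1/S genes gave a wider picture of the pathway. Of these, 9 were higher and 13 lower, or 33.8%, close to the 34.6% of all genes, with a median log2 fold change of -0.025. With upper-quartile scaling 11 were higher and 10 lower, and the median turned to 0.0040. The 3 genes with the smallest adjusted p all fell. DNMT1, the maintenance DNA methyltransferase that works with UHRF1 and PCNA at the fork, was at 160.3, 146 and 147 CPM in shNC cells and at 93.8, 91.4 and 91.7 CPM in shMSLN cells. It fell by 0.71 on the log2 scale (edgeR adjusted p = 2.63e-08), a change nearly as large as that of MCM6 and in the other direction. DSCC1, part of an alternative clamp loader, fell by 0.49 (adjusted p = 4.04e-06), and TOP1, the topoisomerase that relaxes DNA ahead of the fork, by 0.36 (adjusted p = 1.35e-05).

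Of 30 mitotic and G2/M genes, 16 were higher and 1 was lower in shMSLN cells, or 56.7%, with a median log2 fold change of 0.13. Over all genes tested 34.6% passed, with 16.6% higher and 18.0% lower. The mitotic genes were more abundant, with a median of 176 CPM against 60.5 CPM for the 46 genes. Abundant genes are easier to call, so the shares of these lists are not directly comparable. Over the fits that left out 1 sample the number higher ranged from 11 without shNC replicate 3 to 21 without shNC replicate 1, with 1 lower each time. Over all genes, 1798 were higher without shNC replicate 3 and 2570 without shNC replicate 1. The 3 genes with the smallest adjusted p were KIF20A, a cytokinesis kinesin (log2 fold change 0.27, edgeR adjusted p = 5.96e-05), BIRC5, the chromosomal passenger survivin (0.30, adjusted p = 9.65e-05), and NUSAP1, a spindle protein (0.24, adjusted p = 0.000126). The 1 gene that fell was MKI67, the gene of the proliferation marker Ki-67, picked out with its values in view, from 691 ± 7.47 to 622 ± 6.17 CPM (SD, n = 3 each). For this list the median over genes was 0.15, 0.12 and 0.13 in the shMSLN samples, above the 0.050, -0.052 and 0.0074 of shNC replicates 1, 2 and 3, whereas for the 46 replication genes the shMSLN values lay inside the shNC range. Whether the lists differ was not tested. The members and the wider lists were chosen with earlier results of these data known, so their shares are not independent findings.

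**Figure D5:**
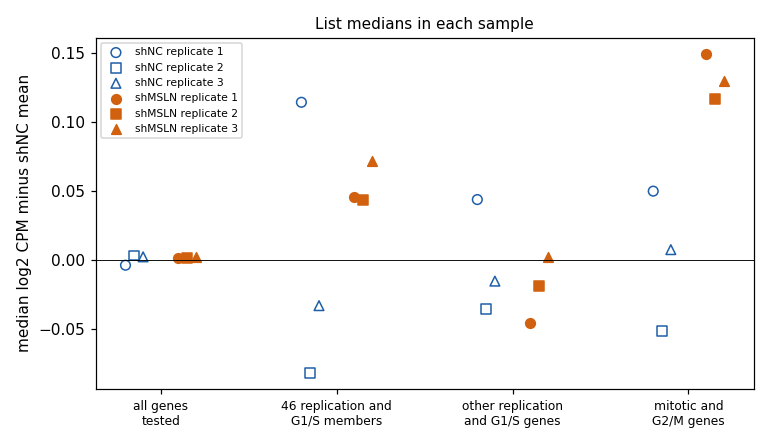
Median over each list of log2 CPM minus the shNC mean, 1 point per sample (open blue for shNC, filled orange for shMSLN). The gene lists were chosen with earlier results of these data known. For the 46 genes shNC replicate 1, at 0.11, lies above all 3 shMSLN samples, while for the mitotic and G2/M genes the shMSLN samples, at 0.12 to 0.15, lie above all shNC samples.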

How the data were processed

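RNA-Seq of 3 shNC and 3 shMSLN samples of HCC1806/HM3 cells was examined. The authors deposited 1 table with estimated counts, FPKM and TPM values per gene. The estimated counts were deposited without scaling, and the deposited TPM and FPKM values take gene length and depth into account. Per the labels, mRNA was enriched with oligo(dT). The submitters' processing notes name the build GRCh38.p13, and the aligner, quantifier and annotation are not given in the sources used here. TPM values were used to compare levels between genes, and FPKM values were not used.

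Of 17860 genes, 16573 had values in each of the 6 samples and were used. The other 1287 had missing marks in shMSLN samples, none of them among the 46 genes. In shMSLN replicates 2 and 3, 47.7% of counts above 100 reads were whole numbers, against at most 7.02% in the other samples. After rounding, the counts were fitted in R 4.3.3 by edgeR 4.0.16 (TMM, filterByExpr, glmQLFit, glmQLFTest, no covariate, Benjamini-Hochberg adjustment over 14552 genes). Standard errors are the log2 fold change divided by the square root of F. Log2 CPM per sample used an offset of 0.5. At a level of 199 reads, counting error limits what can be seen in the least abundant genes. The fits were tested on simulated counts beforehand, with 100 genes changed 1.25-fold and 100 changed 2-fold. There edgeR recovered 79% and 100% of them, and 6.28% of its calls were on unchanged genes. The simulation changed far fewer genes than the 5032 called here. Most called genes among the 46 changed by less than 1.25-fold, which it did not cover.

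Deviations from the group means correlated at 0.39, 0.13 and 0.18 between samples of the same replicate number (7276 genes). However, shNC replicate 2 correlated more with shMSLN replicate 3, at 0.24, and shNC replicate 3 correlated with shMSLN replicate 2 at 0.12. These values do not settle whether replicates 2 and 3 pair by number, and the labels give replicate numbers only. The main fit therefore used no pairing. Values with the replicate block are from an alternative fit that assumes it. The members and gene lists were chosen with earlier results of these data known. Values in every sample are given for MSLN, the 10 largest changes, the largest change in each sub-complex, the MCM2-7 subunits, PCNA, E2F1, CCNE1 and CCNE2, and 3 genes are named from each wider list by adjusted p. Alternatives were other scalings and filters, DESeq2 1.42.0, limma-voom 3.58.1, robust estimation, the replicate block, missing values as 0, leaving out each sample, and shMSLN replicate 1 alone. Promoter sequences are from RefSeq (GRCh38.p14).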

Additional observations from a re-analysis of the deposited data

How the results depend on the processing

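MCM6 was called as higher under all 17 alternatives, and MSLN as lower. Of 782 log2 fold changes of the 46 genes under the alternatives, 693 kept their direction and their side of the threshold, 31 lost a call and 35 gained one. The count of genes called higher among the 46 was 8 and became 5 with DESeq2 and 13 with the replicate block. Over all genes, 2411 became 1753 with DESeq2 and 2785 with the block. When 1 sample at a time was left out, the count called higher among the 46 ranged from 4 to 22 (4 without shNC replicate 3, shMSLN replicate 1 or shMSLN replicate 2, and 22 without shNC replicate 1). The count called lower ranged from 2 to 6 (2 without shMSLN replicate 1, 6 without shNC replicate 2). Over all genes these fits gave 1775 to 2570 higher and 1920 to 2829 lower. The median log2 fold change of the 46 genes ranged from 0.025 to 0.12 in the same fits. With shMSLN replicate 1 alone against the shNC samples, where that sample is assumed to vary like the others, 1 was higher and 0 were lower, against 876 and 921 over all genes. This fit has fewer samples. Among the 46 genes the blocked fit changed no call other than the 6 named above, while the other replication genes went from 9 higher and 13 lower to 10 and 16, and the mitotic genes from 16 and 1 to 18 and 1. Signs turned for genes that were not called in either fit. With upper-quartile scaling CHAF1A was at 0.010 and POLA1 at 0.014, and with plain library totals at 0.011 and 0.014. With shMSLN replicate 1 alone CCNE1 was at 0.031, CHAF1A at 0.032, CHAF1B at 0.018, POLD1 at 0.034, POLD3 at -0.014 and TYMS at -0.0094. Over the fits that left out a sample, values ranged from -0.18 to 0.016 for CCNE1, from -0.028 to 0.068 for CDC45, from -0.057 to 0.046 for CHAF1A, from -0.036 to 0.12 for FEN1, from -0.12 to 0.0088 for MCM4, from -0.036 to 0.0016 for POLA1, from -0.089 to 0.018 for POLD1, from -0.00013 to 0.060 for POLD3, from -0.14 to 0.016 for RFC2 and from -0.038 to 0.083 for TYMS. The cause was not tested. Depth limits the least abundant of the 46 genes most, such as E2F2 and CCNE2.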

Other observations

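These genes of the wider replication list were picked after their values were seen. Both subunits of FACT, the histone chaperone that travels with the fork, were lower in shMSLN cells, SUPT16H from 195 ± 3.64 to 161 ± 1.08 CPM (SD, n = 3 each) and SSRP1 from 423 ± 19.0 to 392 ± 6.47 CPM, with log2 fold changes of -0.28 and -0.11 (adjusted p = 3.73e-05 and 0.0407 from edgeR). TFDP1, a dimerisation partner of the E2F factors, fell from 306 ± 16.7 to 256 ± 2.89 CPM, which is -0.26 as log2 fold change (adjusted p = 0.000216), while TFDP2, the other partner, was at 0.0022 (adjusted p = 0.973). Of the single-strand binding complex RPA, RPA3 rose by a log2 fold change of 0.37 and RPA1 by 0.20 (adjusted p = 3.58e-05 and 0.00314), whereas RPA2 was at -0.13 (adjusted p = 0.128). Of the origin recognition complex, ORC4 rose by 0.38 and ORC3 by 0.18 (adjusted p = 4.31e-05 and 0.0149), while ORC2 was at -0.12 and ORC5 at 0.11 (adjusted p = 0.0680 and 0.369).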
